A study of Mus musculus with 16 samples.

Results

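The late course of a serum response was compared with its mid course in 3T9 cells, an immortalised line of mouse embryo fibroblasts. All cells had first been held without serum for 72 h, which makes fibroblasts quiescent, and had then been given complete medium with 10% fetal bovine serum (FBS). The late group was the 4 libraries taken at 10 and 12 h of serum and the mid group the 4 libraries taken at 4 and 6 h, with replicates 1 and 2 at each time. These are 8 of the 16 small RNA libraries analysed here, chosen by their labelled times alone. The 2 libraries of quiescent cells (0 h) gave the starting level, and the 2 libraries at 8 h, which belong to neither group, were used to describe the passage between the stages. The labels name no genotype or drug that differs between the groups, so time in serum was the only labelled difference. The series design text describes the replicates as independent biological experiments, so each stage of 4 libraries rests on 2 experiments. The RNA came from whole cultures, in which fewer cells that carry a miRNA and less of it per cell cannot be told apart.

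MicroRNAs (miRNAs) are short RNAs that lead Argonaute proteins to matching sites in messenger RNAs and lower the output of those messages. Each is cut from a hairpin precursor whose 5p and 3p arms can both give a mature miRNA; as a rule one arm (the guide) accumulates and the other (the passenger) is lost sooner. The bases called the seed, near the 5′ end, choose most targets, so miRNAs with one seed form a family. When resting fibroblasts receive serum they pass from an immediate early response to the approach to DNA synthesis, and growth-linked miRNAs such as the miR-17-92 cluster, the pair miR-221 and miR-222 and miR-155 are known to respond to growth signals.

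The mature sequences below are shown because the results turn on them: first miRNAs that changed late only, then miRNAs whose early change turned back, then called miRNAs that share a seed or a genomic position with another called miRNA. They are RefSeq entries placed on GRCm38.p6, written 5′ to 3′, with the seed (bases 2 to 8) in capitals.
let-7i-5p: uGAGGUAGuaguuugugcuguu
miR-17-5p: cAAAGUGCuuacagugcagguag
miR-221-3p: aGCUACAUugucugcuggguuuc
miR-30a-3p: cUUUCAGUcggauguuugcagc
miR-30c-2-3p: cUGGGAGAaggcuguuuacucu
miR-92b-3p: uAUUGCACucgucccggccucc
miR-155-5p: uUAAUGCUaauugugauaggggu
miR-210-5p: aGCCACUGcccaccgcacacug
miR-16-1-3p: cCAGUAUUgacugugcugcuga
miR-181a-1-3p: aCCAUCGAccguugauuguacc
miR-181b-1-3p: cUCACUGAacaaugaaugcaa
miR-92a-3p: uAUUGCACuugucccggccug
miR-92a-1-5p: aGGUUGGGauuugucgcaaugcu
miR-222-3p: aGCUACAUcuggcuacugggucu
miR-30a-5p: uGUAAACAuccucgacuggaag
miR-30c-5p: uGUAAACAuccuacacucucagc
let-7b-5p: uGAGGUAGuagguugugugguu
miR-129-2-3p: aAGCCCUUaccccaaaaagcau
miR-129b-5p: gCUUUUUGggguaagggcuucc

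The 8 libraries held 5852087 to 7783249 miRNA reads each and between 741 and 816 detected miRNAs. Levels are given in CPM, the reads of a miRNA divided by the TMM-scaled total of its library and brought to a common size, and a count of 0 allows up to 0.385 to 0.513 CPM in these libraries, counting error only. The 10 h replicates differed most: their counts gave a chi-square of 329 per degree of freedom, against 61.0 to 158 at the other 7 times. The 10 h replicate 2 library also stood apart from the other 3 late libraries in single miRNAs, for example in miR-21a-5p, at 57169 CPM against 87364, 82680 and 99673 CPM. The counts of calls late against mid and late against 0 h, of late-only changes and of reversals are therefore given below with and without it; the other counts are given with it. Of the mesenchymal miRNAs, miR-143-3p (means of 128474 CPM mid and 139975 CPM late) and miR-199a-3p (12582 and 13439 CPM) were abundant. Between them and the low miR-199b-5p (5.42 and 4.07 CPM) lay miR-145a-5p (885 and 822 CPM) and miR-214-3p (848 and 632 CPM). The tested blood markers summed to 2.01 to 3.53 CPM in the mid libraries and 3.11 to 4.09 CPM in the late libraries. Markers of other cell types were not all low. The tested liver and gut markers summed to 647 to 741 CPM mid and 687 to 884 CPM late. The epithelial markers summed to 94.0 to 106 CPM mid and 68.6 to 139 CPM late, and the neural markers to 29.5 to 37.5 and 27.5 to 39.6 CPM. None of 8 pluripotency miRNAs in the table passed the filter on low counts.

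Between the mid and the late stage 41 of 449 tested miRNAs were called (9.13%), 25 of them higher late (5.57% of those tested) and 16 lower (3.56%). A miRNA is called here when its adjusted p was under 0.05 in edgeR's quasi-likelihood test with Benjamini-Hochberg adjustment, with the replicate number as a block, and only called miRNAs are said to have risen or fallen. All adjusted p-values below come from that test. The called changes were small, with log2 sizes of 0.21 to 1.60 and a median of 0.51, and all 41 had the same sign in both experiments. The calls were made on these same libraries, which favours equal signs, so the shared sign is not a separate test of the changes. The libraries of the stages did not overlap for 22 of the 41, namely 16 rises and 6 falls, beside 42 of all 449 (9.35%), of which 29 lay wholly above (6.46%) and 13 wholly below (2.9%). Without 10 h replicate 2 the count was 45, of which 36 were shared and 29 were rises. Without the replicate block it was 18, all among the 41. It was 27 when 6 h replicate 1, 10 h replicate 1, 4 h replicate 2 or 6 h replicate 2 was left out. Scaling by total counts in place of TMM moved the median of all miRNAs by -0.09 and gave 50 calls, of which 19 were rises. In the fit of the 8 mid and late libraries alone, the calls of let-7b-5p, miR-26a-5p, miR-30c-5p, miR-92a-3p, miR-92b-3p and miR-128-3p were lost. Those of miR-7a-5p, miR-181a-1-3p, miR-181b-1-3p, miR-182-3p and miR-3066-5p were lost there too.

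Changes of well-measured members included the rises of miR-92a-1-5p, an arm of the growth-promoting miR-17-92 cluster, and of miR-125b-1-3p, and the falls of miR-335-3p, made from the imprinted gene Mest, and of miR-351-5p. Within a stage no change passed the test: 0 of 449 (0%) were called for 6 h against 4 h and 0 (0%) for 12 h against 10 h by edgeR, limma-voom and DESeq2. In edgeR 28 and 26 miRNAs had an unadjusted p under 0.05, with 9 and 8 of them among the 41 called late against mid. Without the filter on low counts edgeR called 3 and 1. These contrasts compare 2 libraries with 2, against 4 with 4 for the stages, so they do not show that levels stayed flat within a stage. At 8 h the mean level of each of the 41 called miRNAs lay between its mid and late means, beside 184 of all 449 (41.0%). The called miRNAs were chosen for a difference between the stages, so this is a description with no test.

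**Figure D1:**
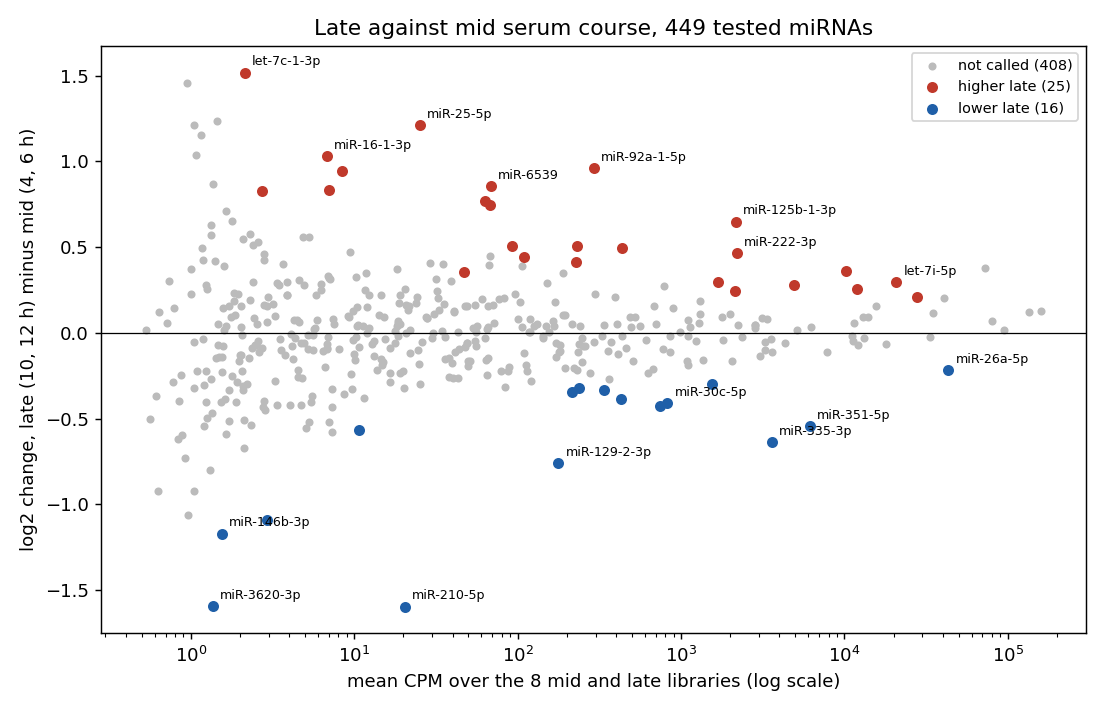
Log2 change late minus mid (y axis) against the mean level over the 8 libraries in CPM (x axis, log scale) for the 449 tested miRNAs, with the 25 called rises and 16 called falls coloured. Changes over 1 in size on the log2 scale were found at low or moderate levels, and the called miRNAs above 10000 CPM changed by 0.36 or less, miR-30a-5p the most.

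Against 0 h, 94 miRNAs were called in the mid libraries (20.9%), 46 higher (10.2%) and 48 lower (10.7%). In the late libraries 114 were called (25.4%), 56 higher (12.5%) and 58 lower (12.9%), and with total-count scaling, which moved the median of all miRNAs by -0.16, there were 148, of which 43 were higher. Without 10 h replicate 2 there were 112, of which 64 were higher. Leaving out 0 h replicate 2 took the mid and late counts to 40 and 74. The mid libraries enter both the change from 0 h and the late change, and the late libraries enter both late changes, so the values are given side by side and no likeness is read from them. Of the 41 miRNAs called late against mid, 15 moved the same way in all 3 contrasts, 9 changed only late, 8 reversed, and 9 belonged to none of these.

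The 15 continuing changes were 8 rises and 7 falls. Among the rises was miR-92a-1-5p, the minor arm of the miR-92a-1 hairpin in the host gene Mir17hg (chr14:115044437-115044459, plus strand). It stood at 190 and 222 CPM at 4 h (replicates 1 and 2), 190 and 196 at 6 h, 393 and 362 at 10 h, with 401 and 398 at 12 h. All 4 late libraries lay above all 4 mid libraries, and at 8 h it was still at 231 and 240 CPM, so most of its late rise came after 8 h. Its change late minus mid was 0.96 ± 0.10 (log2 ± SE, adjusted p = 2.7e-05), after a rise of 1.38 ± 0.14 from 0 h to the mid libraries. The guide of the same hairpin, miR-92a-3p, measured 24081 and 26761 CPM at 4 h, 23856 and 29090 at 6 h, 26638 and 30643 at 10 h, with 30396 and 32443 at 12 h. Its libraries overlapped between the stages and its rise was 0.21 ± 0.05 (adjusted p = 0.0186). That call was lost without the block (adjusted p = 0.269), in the fit of the 8 libraries alone (0.0701), without the filter on low counts (0.0519), with DESeq2 (0.0615), with total counts (0.12 on the log2 scale) and without 4 h replicate 1 (0.22), 6 h replicate 1 (0.18), 12 h replicate 1 (0.19) or 4 h replicate 2 (0.20). The mature sequence of miR-92a-3p is also made from a hairpin on chromosome X, and its reads cannot be assigned to either.

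All 4 arms of miR-221 and miR-222, a pair on chromosome X known for repressing the cell-cycle inhibitor p27, rose late against mid. For miR-222-5p the libraries read 50.8 and 53.1 CPM at 4 h, 52.9 and 45.6 at 6 h, 82.4 and 80.6 at 10 h, with 88.0 and 88.2 at 12 h. The stages were separate, the 8 h libraries (75.6 and 81.2 CPM) were already near the late level, and the rise was 0.74 ± 0.10 (adjusted p = 0.000112). The other passenger arm, miR-221-5p, went from 321, 357, 412 and 361 CPM in the mid libraries (4 h then 6 h) to 546, 588, 457 and 457 CPM in the late libraries (10 h then 12 h), a rise of 0.49 ± 0.08 (adjusted p = 0.00137). The guide miR-222-3p was at 1759, 1686, 1977 and 1898 CPM and then at 2077, 2479, 2569 and 3095 CPM, a rise of 0.46 ± 0.09 (adjusted p = 0.00367). Its call was lost without the block (adjusted p = 0.0505) and when only reads equal to the reference were counted (0.21, adjusted p = 0.229), a form that made up 2.54% of its mid reads. Of the 4 arms, 3 had also been called from 0 h to the mid libraries; miR-221-3p had not and is described with the late changes.

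The further continuing rises were miR-6539, at 0.86 ± 0.11, miR-125b-1-3p, at 0.65 ± 0.09, and miR-29a-3p, a repressor of collagen and other matrix genes, at 0.28 ± 0.06. For miR-125b-1-3p the mid libraries held 1605, 1257, 2145 and 1777 CPM and the late libraries 2475, 2670, 2716 and 2616 CPM, with no overlap (adjusted p = 0.000135). Its guide arm miR-125b-5p, which is also made from the miR-125b-2 hairpin, was not called (0.16 ± 0.09, adjusted p = 0.375). The call of miR-29a-3p was lost without 6 h replicate 2 (log2 change 0.26), with total counts (log2 change 0.19) and without the block (adjusted p = 0.0646).

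The continuing falls were led by miR-129-2-3p and miR-335-3p. miR-335-3p, whose hairpin lies in an intron of Mest (chr6:30741354-30741375, plus strand), measured 4413 and 5214 CPM at 4 h, 3961 and 3822 at 6 h, 2781 and 3597 at 10 h, with 2379 and 2487 at 12 h. Every late library lay below every mid library, and the level fell by 0.64 ± 0.07 on the log2 scale (adjusted p = 2.7e-05) after a mid change of -0.51 ± 0.08 from 0 h. Its other arm, miR-335-5p, was not called (0.09 ± 0.10, adjusted p = 0.714).

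miR-351-5p, a member of the X-linked cluster of miR-322, miR-503 and miR-351 with the seed of miR-125, read 8047, 7237, 8016 and 5933 CPM in the mid libraries and 5435, 5405, 5375 and 3870 CPM in the late libraries. The stages did not overlap and the fall was -0.54 ± 0.08 (adjusted p = 0.000186). miR-214-3p, made from Dnm3os in mesenchymal cells, went from 843, 901, 807 and 842 CPM to 682, 660, 607 and 580 CPM, also without overlap (-0.43 ± 0.07, adjusted p = 0.00065).

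miR-30c-5p and miR-30b-5p continued a larger early fall. miR-30c-5p was at 2232 and 2392 CPM at 0 h, 1096 and 1067 at 4 h, 914 and 707 at 6 h, 769 and 683 at 10 h, with 758 and 613 at 12 h. Most of its loss thus came before 6 h, and the 6 h replicate 2 library overlapped the late ones. The changes were -1.31 ± 0.09 from 0 h to the mid libraries and -0.41 ± 0.08 from mid to late (adjusted p = 0.00381), the latter lost without the block (adjusted p = 0.0613) and in a fit of the 8 libraries alone (adjusted p = 0.0534). miR-30b-5p changed by -0.38 ± 0.09 (adjusted p = 0.013), and was not called without 4 h replicate 1 (-0.37), 6 h replicate 1 (-0.35) or 12 h replicate 1 (-0.35), or without the block (adjusted p = 0.255).

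miR-129-2-3p and miR-129b-5p come from hairpins on opposite strands of the same stretch of chromosome 2 (chr2:94241376-94241397, minus strand, and chr2:94241378-94241399, plus strand, for the mature forms). miR-129-2-3p was at 176 and 309 CPM at 4 h, 114 and 289 at 6 h, 84.5 and 218 at 10 h, with 71.5 and 161 at 12 h. Replicate 2 held more than replicate 1 at each time, so the stages overlapped, and within each replicate both late values lay below both mid values. The falls were -0.76 ± 0.14 (adjusted p = 0.00264) and, for miR-129b-5p, -0.57 ± 0.15 (adjusted p = 0.0236). Both calls were lost without the block (adjusted p = 0.405 and 0.479). That of miR-129b-5p was also lost without 6 h replicate 1 (-0.60), 10 h replicate 1 (-0.50), 4 h replicate 2 (-0.52), 6 h replicate 2 (-0.53) or 12 h replicate 2 (-0.41).

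A change was taken to arise only late when it was called late against mid and late against 0 h and the mid libraries did not differ from 0 h at an unadjusted p under 0.05. By this rule 9 of 449 miRNAs (2%) changed only late, 8 upwards and 1 downwards. The rule itself selects for mid changes that miss the threshold, and a mid change that misses a threshold does not show that none occurred. The count was 14 without 10 h replicate 2, of which 5 were shared (let-7i-5p, miR-148b-3p, miR-17-5p, miR-30a-3p and miR-30c-2-3p), 4 without the block (3 shared) and 14 with reads equal to the reference (5 shared).

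miR-17-5p, the first member of the miR-17-92 cluster and known for repressing cell-cycle inhibitors (Mir17hg, chr14:115043684-115043706, plus strand), was lowest at 2 h and higher at each later time in both replicates. It stood at 169 and 172 CPM at 0 h, 140.7 and 150.5 at 2 h, 174 and 188 at 4 h, 202 and 201 at 6 h, 222.6 and 227.8 at 8 h, 261 and 241 at 10 h, with 309 and 278 at 12 h. No late library overlapped a mid library, and every mid library lay above both 0 h libraries. The late rise was 0.51 ± 0.08 (adjusted p = 0.000597) against 0.16 ± 0.10 from 0 h to the mid libraries (adjusted p = 0.267), and it was called under every alternative and every omission of a library. Its seed partner in the cluster, miR-20a-5p, differed by 0.39 ± 0.14 (adjusted p = 0.121).

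Among the most abundant late rises was let-7i-5p, of the let-7 family that represses growth genes such as Ras and Hmga2. Its libraries read 17908 and 18732 CPM at 4 h, 17158 and 20707 at 6 h, 22406 and 23086 at 10 h, with 23079 and 22882 at 12 h. The stages were separate, and the late libraries differed from each other far less than the mid ones. The rise was 0.30 ± 0.06 (adjusted p = 0.00381), and it was called under every alternative and omission.

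Both arms of the miR-30a hairpin rose late. miR-30a-3p, the passenger, was at 180 and 210 CPM at 0 h, 174 and 188 at 4 h, 179 and 240 at 6 h, 209 and 292 at 10 h, with 251 and 287 at 12 h, a rise of 0.41 ± 0.08 (adjusted p = 0.00385; 0.235 without the block). The guide miR-30a-5p was at 8837, 8220, 9096 and 9339 CPM in the mid libraries and at 11709, 9286, 11875 and 12890 CPM in the late ones, where the low value is 10 h replicate 2. It rose by 0.36 ± 0.07 over mid (adjusted p = 0.00367) but missed the rule since its level against 0 h was not called (0.23 ± 0.09, adjusted p = 0.0612). In reads equal to the reference, 4.87% of its mid reads, the change was 0.01.

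miR-30c-2-3p, the passenger of miR-30c-2 (chr1:23291754-23291775, plus strand), had the second largest late-only rise. Its libraries read 41.1 and 53.2 CPM at 0 h, 39.2 and 38.6 at 4 h, 54.6 and 55.6 at 6 h, 73.9 and 83.5 at 10 h, with 72.8 and 87.7 at 12 h. The stages did not overlap, the level dipped below 0 h at 2 h (35.03 and 39.24 CPM) and 4 h, and the late rise was 0.77 ± 0.10 (adjusted p = 0.000136), called under every alternative and omission.

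The calls of the other 4 late rises were each lost under some alternatives. miR-31-5p was at 11262, 10210, 10891 and 10893 CPM in the mid libraries and at 12528, 13409, 13373 and 12324 CPM in the late libraries, which do not overlap. The call of its rise of 0.26 ± 0.06 (adjusted p = 0.013) was lost without the block (adjusted p = 0.0515). It was also lost with total counts (log2 change 0.17), and without 6 h replicate 1 (0.24), 12 h replicate 1 (0.23), 4 h replicate 2 (0.23) or 10 h replicate 2 (0.23), all log2 changes. miR-148b-3p, of a family that targets the DNA methyltransferase Dnmt1, went from 1585, 1393, 1656 and 1418 CPM to 1954, 1650, 2046 and 1779 CPM (0.29 ± 0.06, adjusted p = 0.00381). Within each replicate its late values were above its mid values, and the call was lost without the block (adjusted p = 0.262) and in reads equal to the reference (log2 change 0.11).

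miR-221-3p, with 1718, 2202, 1754 and 2134 CPM and then 1976, 2561, 2104 and 2602 CPM, rose by 0.24 ± 0.07 (adjusted p = 0.0417). This was the weakest of the late-only calls: 12 of the 16 omissions of a library ended it, among them each of the 8 mid and late libraries, at changes of 0.22 to 0.27, and so did the fit without the block (adjusted p = 0.556), DESeq2 (0.0757), its size factors in edgeR (0.0672), total counts (0.211) and no filter on low counts (0.0981). miR-7a-5p, a repressor of the EGF receptor pathway, was at 4.67, 7.02, 6.02 and 4.88 CPM in the mid libraries and at 13.1, 5.30, 11.1 and 15.1 CPM in the late ones. At 0 h it was at 3.64 and 4.06 CPM, below every mid library, and its mid change of 0.55 ± 0.35 missed the threshold (adjusted p = 0.295). The low late value is 10 h replicate 2, and the rise of 0.94 ± 0.24 (adjusted p = 0.0219) was lost without 4 h replicate 1 (0.77), 6 h replicate 1 (1.01), 10 h replicate 1 (0.53), 6 h replicate 2 (0.89) or 12 h replicate 2 (0.78), without the block (adjusted p = 0.0505) and in the fit of the 8 libraries alone (0.0607).

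The single late-only fall was miR-92b-3p, at 244 and 213 CPM at 0 h, 265 and 237 at 4 h, 248 and 210 at 6 h, 228 and 187 at 10 h, with 197 and 148 at 12 h. Replicate 1 lay above replicate 2 throughout, and in each replicate both late values were below both mid values. The fall was -0.35 ± 0.07 (adjusted p = 0.00674), and it was not called without 12 h replicate 2 (-0.29), without the block (adjusted p = 0.235) or in the fit of the 8 libraries alone (adjusted p = 0.066).

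**Figure D2:**
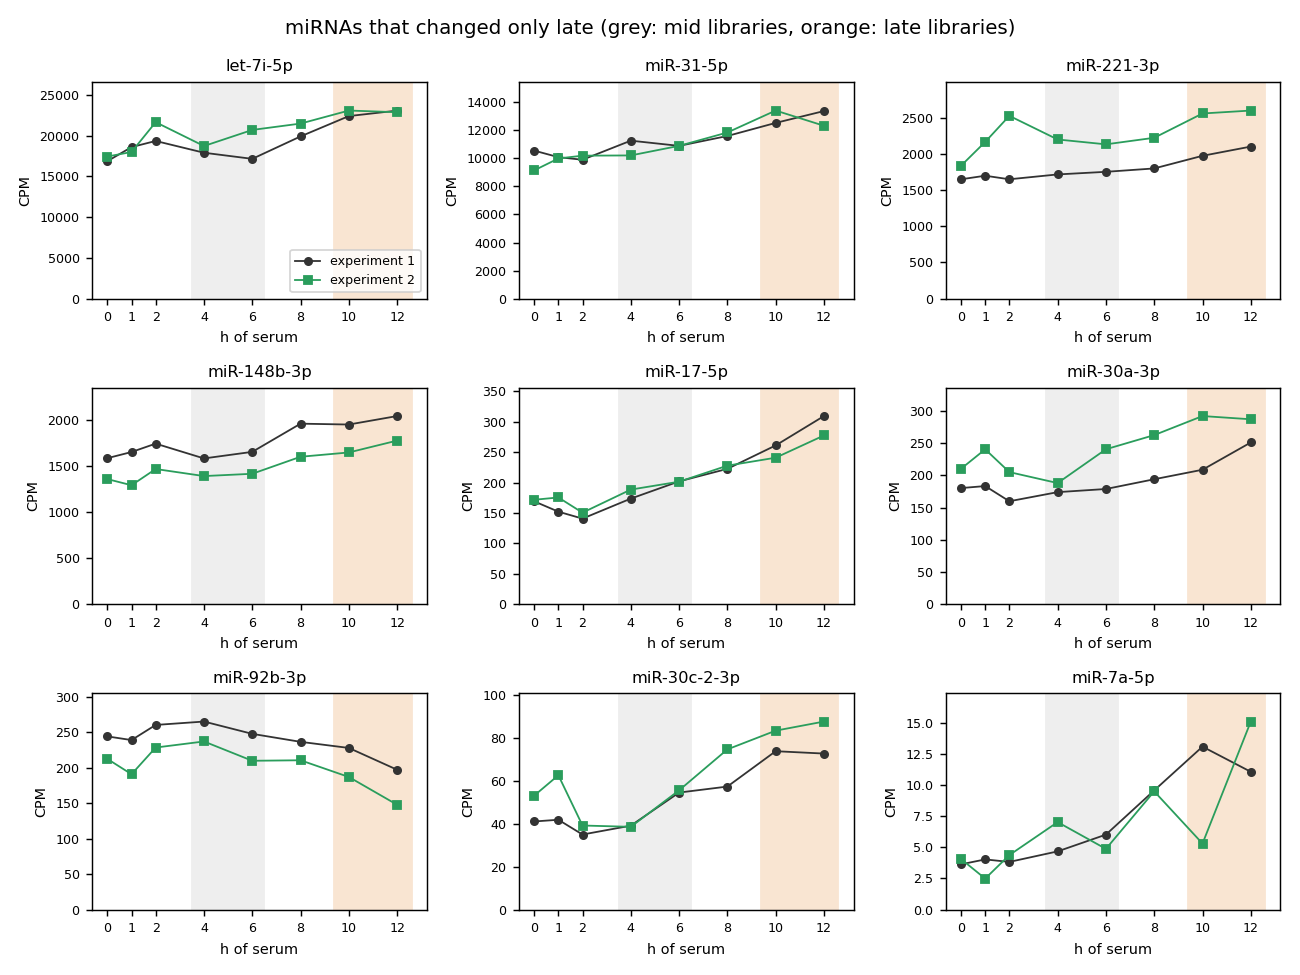
Level in CPM (y axes, starting at 0) against hours of serum (x axes) for the 9 miRNAs that met the rule for late-only changes. A line is drawn for each of the 2 experiments, and the mid (grey) and late (orange) times are shaded. miR-17-5p, let-7i-5p, miR-30c-2-3p and miR-31-5p have no late value at or below a mid value, and miR-7a-5p has its low late value at 10 h in experiment 2.

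A reversal was taken as a call from 0 h to the mid libraries followed by a call of the opposite sign from mid to late, which 8 of 449 miRNAs met (1.78%), 4 that went up and then down and 4 that went down and then up. Of the 8, 6 returned to a level that was not called against 0 h, 1 (miR-155-5p) fell back in part and 1 (miR-210-5p) went past its start. Since both contrasts share the mid libraries, a chance deviation in those libraries would push them to opposite signs. The 8 were therefore also compared without a shared mid library, 4 h against 0 h and late against 6 h. All 8 kept opposite signs there. Of them, 7 were called for 4 h against 0 h, and 4 had an unadjusted p under 0.05 for late against 6 h. None was called in both. The 8 had been chosen on contrasts that hold these same libraries, so the kept signs and small p-values are a description and not a separate test. Only 9 of the 449 miRNAs were called for late against 6 h in that comparison. The count of reversals was 5 without 10 h replicate 2, all among the 8, and 3 without the block, and it was 2 to 5 when 0 h replicate 1 (5), 4 h replicate 1 (4), 10 h replicate 1 (3), 12 h replicate 1 (5), 0 h replicate 2 (2), 4 h replicate 2 (2) or 6 h replicate 2 (2) was left out.

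miR-210-5p, the passenger arm of the hypoxia-induced miR-210 (chr7:141221445-141221466, minus strand), gave the largest fall of the tested miRNAs, with miR-3620-3p, at a far lower level, next to it at -1.59 on the log2 scale. It was at 21.8 and 16.4 CPM at 0 h, 10.6 and 10.7 at 1 h, 9.93 and 9.81 at 2 h, 27.5 and 28.9 at 4 h, 31.2 and 35.5 at 6 h, 17.4 and 19.2 at 8 h, 12.1 and 7.73 at 10 h, with 12.0 and 8.96 at 12 h. It thus dropped first, peaked at 6 h in both replicates and ended near its level at 1 and 2 h, with no overlap between the stages. The mid rise was 0.69 ± 0.17 (adjusted p = 0.00782) and the late change -1.60 ± 0.14 (adjusted p = 7.25e-06), and the late call was made under every alternative and omission. Against 6 h alone the late change was -1.72 ± 0.17 (adjusted p = 1.98e-05), and 4 h against 0 h missed the threshold (0.57, adjusted p = 0.0576). Its guide, miR-210-3p, was at 152, 122.3, 157 and 159 CPM in the mid libraries and 152, 146, 158 and 147 CPM in the late ones, a difference of 0.04 ± 0.09 (adjusted p = 0.849).

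miR-155-5p, a regulator of immune responses made from Mir155hg (chr16:84714143-84714165, plus strand), fell back by a small part of its early rise. It was at 76.1 and 83.2 CPM at 0 h, 354 and 413 at 4 h, 319 and 413 at 6 h, 259 and 375 at 10 h, with 251 and 314 at 12 h. In replicate 1 the late values lay below the mid ones, and in replicate 2 they did too, but across replicates the stages overlapped. The rise to the mid libraries was 2.23 ± 0.12 and the late change -0.33 ± 0.09 (adjusted p = 0.0271). The late call was lost without the block (adjusted p = 0.376) and without 4 h replicate 1 (-0.31), 6 h replicate 1 (-0.35), 10 h replicate 1 (-0.26), 12 h replicate 1 (-0.33), 4 h replicate 2 (-0.35), 6 h replicate 2 (-0.31) or 12 h replicate 2 (-0.32).

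The forms of miR-155-5p moved in opposite directions. Reads equal to the reference rose, from 61.0 and 55.8 CPM at 4 h and 71.1 and 76.3 at 6 h to 83.5 and 119 at 10 h, with 88.2 and 107 at 12 h. Counted on such reads alone, the change late minus mid was reversed, at 0.61 (adjusted p = 0.000841). Reads extended at the 3′ end by bases that match the hairpin fell over the same times, from 252 and 314 CPM at 4 h and 198 and 275 at 6 h to 117 and 183 at 10 h, with 104 and 133 at 12 h. The extended form made up 69.0% ± 5.97 (SD, n = 4) of the reads in the mid libraries and 44.4% ± 3.32 (n = 4) in the late ones, against 21.9% and 24.2% at 0 h. The share equal to the reference was 17.9% ± 3.63 mid, 33.3% ± 1.56 late and 40.8% and 42.0% at 0 h. Trimmed reads were 30.5% and 27.5% at 0 h, 4.38% to 7.33% in the mid libraries and 7.75% to 12.8% in the late ones, and reads extended at the 3′ end by bases that do not match the hairpin were 6.80% and 6.34%, 5.43% to 9.73% and 10.6% to 12.8%. The late shares of the first 3 forms thus lay between those of the mid libraries and of quiescent cells, and that of the last lay above both.

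The other reversing falls were of low miRNAs. miR-182-3p was at 1.96 and 1.08 CPM at 0 h, at 5.56, 4.42, 2.58 and 3.36 CPM in the mid libraries and at 1.63, 1.06, 1.35 and 3.46 CPM in the late ones, where 12 h replicate 2 overlapped the mid range. Its change of -1.09 ± 0.30 (adjusted p = 0.0303) was lost without 4 h replicate 1 (-1.02), 10 h replicate 1 (-1.23), 12 h replicate 1 (-0.74), 4 h replicate 2 (-1.15), 6 h replicate 2 (-0.94) or 10 h replicate 2 (-0.96), without the block (adjusted p = 0.0617), in the fit of the 8 libraries alone (0.0900) and with DESeq2 (0.0751). miR-146b-3p, the passenger of an NF-κB-linked miRNA, was at 0.560 and 0.541 CPM at 0 h, at 2.27, 2.99, 2.01 and 1.34 CPM and then at 0.981, 1.06, 1.05 and 0.629 CPM late, so that every late value lay above both 0 h values. Its change of -1.17 ± 0.35 (adjusted p = 0.0461) was lost in 14 of the 16 omissions, all but those of 1 h replicates 1 and 2, at changes of -1.39 to -0.98. It was also lost without the block (adjusted p = 0.0802), with limma-voom (0.0616), with DESeq2 (0.205) and in reads equal to the reference (0.207).

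The 4 miRNAs that went down and then up were all passenger arms. miR-181a-1-3p, the passenger of an abundant family known from lymphocytes (chr1:137966508-137966529, plus strand), was at 155 and 131 CPM at 0 h, 92.4 and 71.9 at 4 h, 116 and 94.7 at 6 h, 117 and 134 at 8 h, 132 and 104 at 10 h, with 135 and 135 at 12 h. The lowest levels were at 2 h (83.8 and 69.1 CPM) and 4 h, and only 10 h replicate 2 overlapped the mid range. It changed by -0.62 ± 0.12 to mid and then rose by 0.44 ± 0.10 (adjusted p = 0.00911). That call was lost without 4 h replicate 2 (0.39) or 6 h replicate 2 (0.41), without the block (adjusted p = 0.0928) and in the fit of the 8 libraries alone (adjusted p = 0.0534). Its neighbour in the same transcript, miR-181b-1-3p, was at 4.67, 2.47, 8.60 and 5.04 CPM mid and 10.6, 5.76, 10.5 and 8.65 CPM late, a rise of 0.83 ± 0.20 (adjusted p = 0.013). Both libraries of replicate 2 at 4 and 6 h mattered there too (0.71 and 0.74 without them, not called), as did 10 h replicate 1 (0.67, not called), and the call was lost without the block (adjusted p = 0.0802) and in the fit of the 8 libraries alone (0.0686).

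miR-16-1-3p, whose hairpin lies in Dleu2 beside that of miR-15a (chr14:61631894-61631915, minus strand), was at 8.39 and 10.8 CPM at 0 h, 3.28 and 5.72 at 4 h, 4.30 and 4.37 at 6 h, 9.65 and 5.91 at 10 h, with 12.4 and 8.65 at 12 h. The stages did not overlap, and the changes were -1.12 ± 0.26 to mid and 1.03 ± 0.23 from mid to late (adjusted p = 0.00911). The late call was lost without 4 h replicate 1 (0.83) or 10 h replicate 1 (0.83). let-7c-1-3p, at 0.884, 0.520, 2.15 and 1.01 CPM mid and 2.62, 4.24, 2.54 and 3.14 CPM late, rose by 1.52 ± 0.38 (adjusted p = 0.0199). It lies close to the limit of detection, and its call was lost without 4 h replicate 2 (1.27), 6 h replicate 2 (1.21), 10 h replicate 2 (1.39) or 12 h replicate 2 (1.53). None of the guides of these 4 hairpins was called, with differences of -0.11 to 0.11. These guides are also made from other hairpins, so their reads cannot be assigned to these 4.

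**Figure D3:**
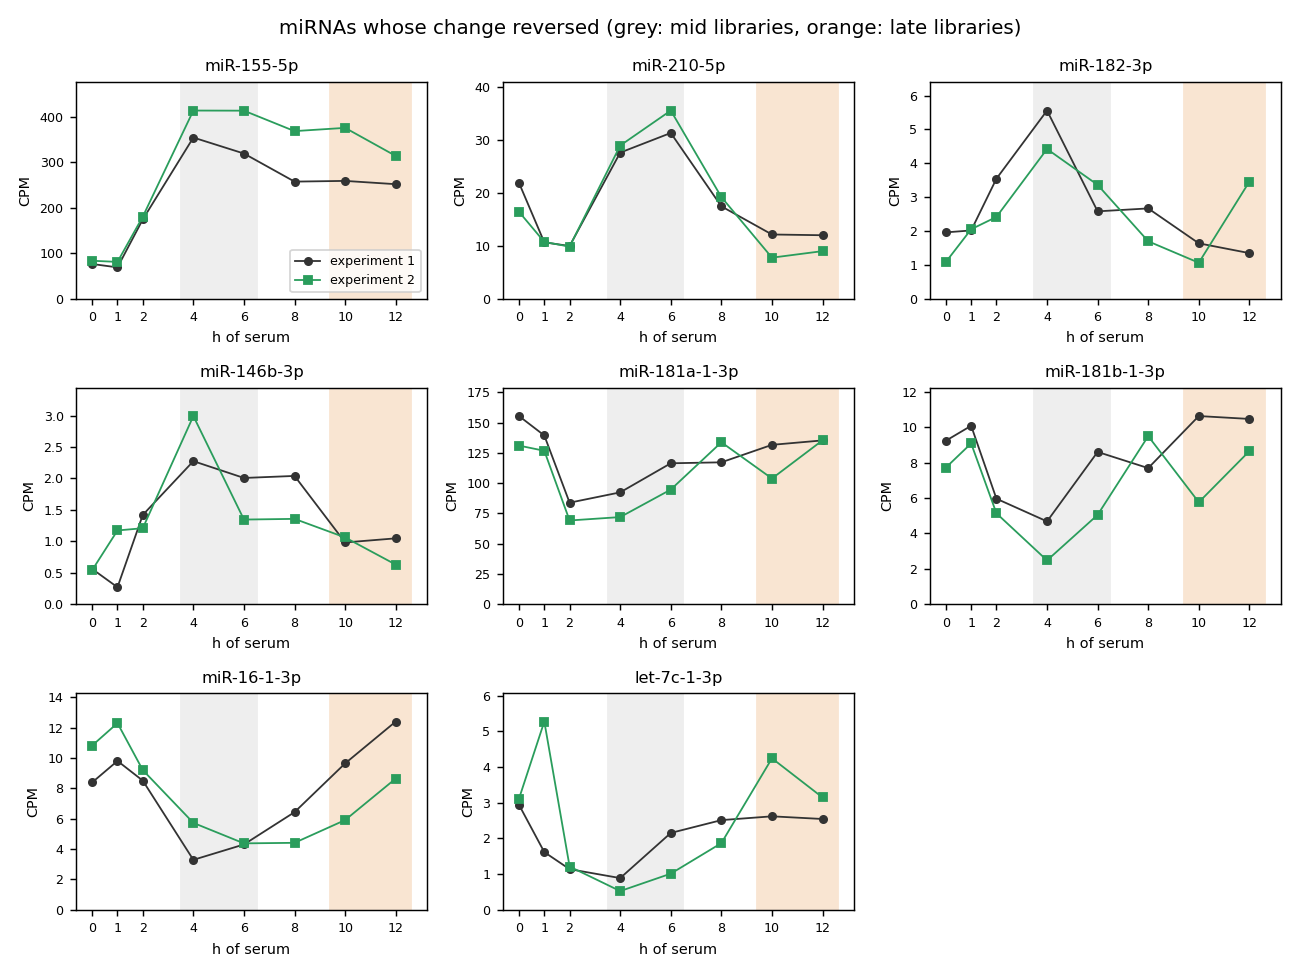
Level in CPM (y axes, starting at 0) against hours of serum (x axes) for the 8 miRNAs whose change from 0 h to the mid times (grey) turned back by the late times (orange), with a line for each of the 2 experiments. miR-210-5p peaks at 6 h in both experiments, miR-181a-1-3p is lowest at 2 h in both, and miR-16-1-3p is lowest at 4 h in experiment 1 and at 6 h in experiment 2.

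The 9 called miRNAs outside these classes included miR-25-5p, the passenger of a hairpin within Mcm7, which codes for a subunit of the replicative helicase (chr5:138165370-138165391, minus strand). It was at 17.8 and 22.6 CPM at 0 h, 14.9 and 18.5 at 4 h, 12.9 and 15.1 at 6 h, 19.3 and 17.3 at 8 h, 33.8 and 35.8 at 10 h, with 42.6 and 28.9 at 12 h. It rose mostly after 8 h, by 1.21 ± 0.15 over mid (adjusted p = 7.49e-05), with no overlap and under every alternative and omission. It missed the late-only rule since the mid libraries were lower than 0 h at an unadjusted p of 0.0437 (-0.40 ± 0.18). The other 5 tested arms of the miR-106b-25 cluster differed by -0.05 to 0.16 and were not called.

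miR-26a-5p, at 50719, 45257, 50009 and 39890 CPM mid and 41692, 40050, 44077 and 33909 CPM late, fell by 0.22 ± 0.06 (adjusted p = 0.0274). This was not called without the block (adjusted p = 0.376), in the fit of the 8 libraries alone (0.0875) and without 2 h replicate 1 (-0.21), 4 h replicate 1 (-0.24), 6 h replicate 1 (-0.19), 10 h replicate 1 (-0.16), 4 h replicate 2 (-0.20) or 12 h replicate 2 (-0.16). Its stages overlapped, and it is made from hairpins in both Ctdspl and Ctdsp2. miR-3066-5p, a low miRNA at 1.51 to 2.53 CPM mid and 2.84 to 3.92 CPM late, rose by 0.83 ± 0.21 (adjusted p = 0.0212) and was not called without 6 h replicate 1 (0.88), 10 h replicate 1 (0.77), 4 h replicate 2 (0.76), 6 h replicate 2 (0.79) or 12 h replicate 2 (0.72), in the fit of the 8 libraries alone (adjusted p = 0.0607) or with DESeq2 (0.188). The remaining members were let-7b-5p, miR-30a-5p, miR-31-3p, miR-128-3p, miR-3620-3p and miR-7068-3p, with changes between -1.59 and 0.51. Of these, miR-128-3p (-0.32 ± 0.08, adjusted p = 0.0186) was not called without 4 h replicate 1, 6 h replicate 1, 10 h replicate 1, 4 h replicate 2, 6 h replicate 2 or 12 h replicate 2 (-0.33 to -0.24), without the block (adjusted p = 0.405), in the fit of the 8 libraries alone (0.0786) or without the filter on low counts (0.0519). miR-7068-3p (0.36 ± 0.09, adjusted p = 0.0219) was not called without 4 h replicate 1, 6 h replicate 1, 10 h replicate 1, 12 h replicate 1, 4 h replicate 2 or 12 h replicate 2 (0.32 to 0.38), without the block (adjusted p = 0.141), with total counts (0.0805), without the filter (0.0908) or in reads equal to the reference (0.213). miR-3620-3p (-1.59 ± 0.37, adjusted p = 0.0111) was not called without 6 h replicate 1 (-1.30) or 12 h replicate 2 (-1.39).

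The 5 most abundant miRNAs (in order of name miR-21a-5p, miR-22-3p, miR-27b-3p, miR-99b-5p, miR-143-3p) were not called, with differences of 0.02 to 0.38. miR-21a-5p, a growth-linked miRNA, was at 67208 and 50522 CPM at 4 h, 74677 and 58361 at 6 h, 87364 and 57169 at 10 h, with 82680 and 99673 at 12 h. It differed by 0.38 ± 0.12 (adjusted p = 0.0551), and without 10 h replicate 2 it was called at 0.51 (adjusted p = 0.00419). miR-143-3p was called as well when that library was left out (0.23, adjusted p = 0.0482).

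**Figure D4:**
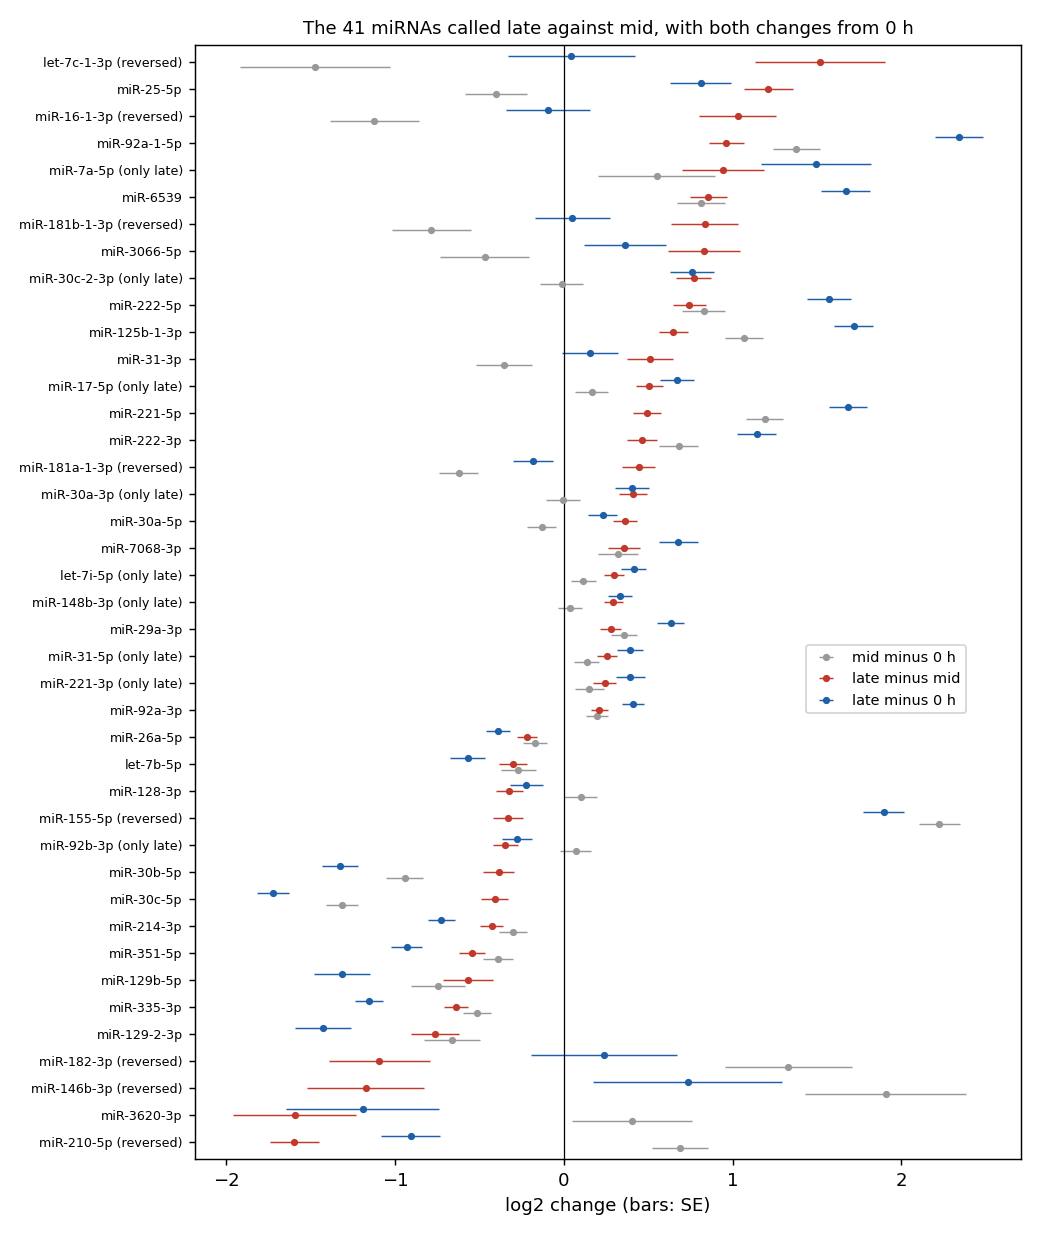
Log2 change with its SE (x axis) for the 41 called miRNAs (y axis, ordered by the late minus mid change): mid minus 0 h in grey, late minus mid in red, late minus 0 h in blue. Reversed miRNAs have grey and red points on opposite sides of 0, and the late-only miRNAs have grey points at 0.16 or less in size except miR-7a-5p (0.55); the contrasts share libraries.

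Shared seeds did not mean a shared direction. The guides miR-221-3p and miR-222-3p share the seed GCUACAU and both rose. miR-92a-3p rose and miR-92b-3p fell although both carry AUUGCAC, and miR-25-3p and miR-32-5p with the same seed were not called. miR-30a-5p rose while miR-30c-5p fell, both with GUAAACA, and miR-30e-5p with the same seed was not called (0.05). Elsewhere in the miR-30 family, miR-30b-5p fell (-0.38) and miR-30d-5p was not called (-0.05). Of 9 tested miRNAs with the let-7 seed GAGGUAG, let-7i-5p rose, let-7b-5p fell (-0.30 ± 0.09, adjusted p = 0.0363) and 7 were not called. The let-7b-5p fall was lost in 10 of the 16 omissions (changes of -0.31 to -0.19) without the block (adjusted p = 0.269) and in the fit of the 8 libraries alone (0.116), and its 10 h replicate 2 library held 1825 CPM against 1203, 1276 and 1274 CPM in the other late libraries.

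Arms were ranked within each hairpin that had both tested. Of 121 less abundant (minor) arms 11 rose and 5 fell, and of 114 more abundant (major) arms 10 rose and 9 fell, beside the 5.57% and 3.56% of all tested. The median change was 0.01 for minor and 0.03 for major arms, and each mature miRNA was counted once within its class. Both arms were called in 5 hairpins. In miR-221, miR-30a, miR-31 and miR-92a-1 they rose together, and in miR-30c-2 the passenger rose (0.77) while miR-30c-5p fell (-0.41). miR-30c-5p is also made from the miR-30c-1 hairpin on chromosome 4, so its reads cannot be assigned to miR-30c-2, whereas miR-30c-2-3p is specific to it; the passenger of miR-30c-1, miR-30c-1-3p, was not called (0.09 ± 0.12, adjusted p = 0.744). For miR-31, the 3p arm was at 81.1, 55.9, 105 and 65.2 CPM mid and 134, 75.2, 110 and 111 CPM late, an overlapping range, and its rise of 0.51 ± 0.14 (adjusted p = 0.0274) was lost without 4 h replicate 1 (0.52), 6 h replicate 1 (0.56), 10 h replicate 1 (0.41), 4 h replicate 2 (0.50), 6 h replicate 2 (0.46) or 12 h replicate 2 (0.37), without the block (adjusted p = 0.376) and with total counts (0.0578).

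**Figure D5:**
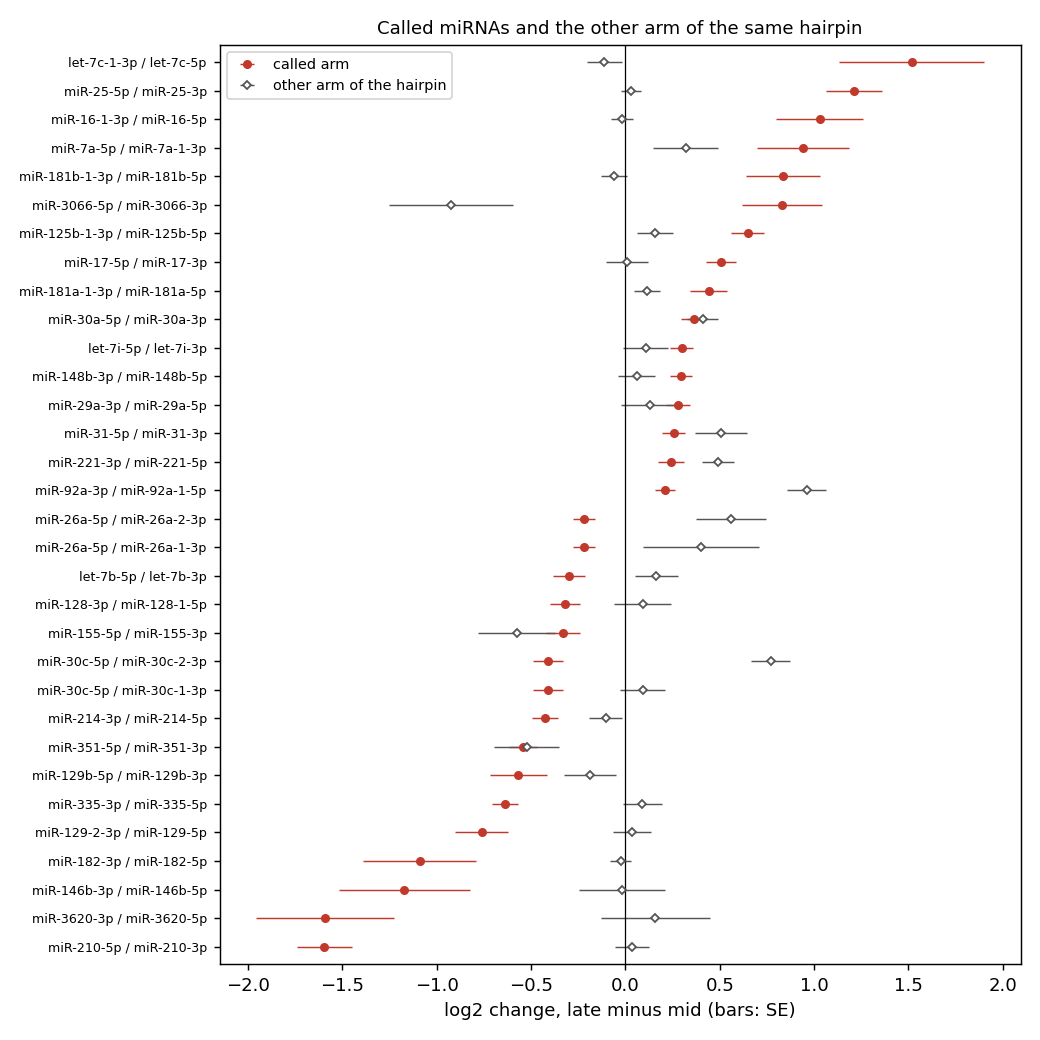
Log2 change late minus mid with its SE (x axis) of each called arm (red) and of the other arm of its hairpin (open diamonds), 1 line per hairpin (y axis). The partners of miR-210-5p, miR-25-5p and miR-16-1-3p lie near 0, and miR-30c-5p and miR-30c-2-3p lie on opposite sides of it. miR-16-5p, the partner of miR-16-1-3p, is also made from another hairpin.

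Among miRNAs described as growth-factor-induced 6 of 18 tested rose and 2 fell, beside the 5.57% and 3.56% of all tested, with a median of 0.00 that equals that of all 449 (0.00). The rises were the arms of miR-221, miR-222 and miR-31 and the falls were miR-155-5p and miR-146b-3p, so the list held early peaks and late rises side by side. In miR-17-92 with its paralogous clusters 4 of 16 rose and none fell, beside the same 5.57% and 3.56%, at a median of 0.22: miR-17-5p, miR-92a-1-5p, miR-92a-3p and miR-25-5p. In miR-17-92 itself, 3 of 10 tested arms rose and the uncalled miR-18a-5p, miR-19a-3p, miR-19b-3p and miR-20a-5p differed by 0.32, 0.35, 0.35 and 0.39. The miR-30 family had 3 rises and 2 falls of 11 (median 0.09), and the let-7 family 2 rises and 1 fall of 19 (median 0.08).

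In the other lists the counts are small beside the 9.13% of all tested that were called, and 1 call in a list of about 10 is near that share. The cluster of miR-322, miR-503 and miR-351 had 1 fall of 11 (median -0.04), the cluster of miR-199a and miR-214 1 fall of 5 (median -0.13), the miR-181 family 2 rises of 8 (median 0.11) and the family of miR-15 and miR-16 1 rise of 10 (median 0.03). The miR-29 family had 1 rise of 5 (median 0.13), the miR-26 family 1 fall of 5 (median 0.05), the clusters of miR-99, miR-100 and miR-125 1 rise of 10 (median -0.01) and the matrix-linked miRNAs 1 fall of 8 (median 0.07). Of the hypoxia-linked pair, miR-210-5p fell and miR-210-3p was not called. No member was called among 7 tested of the miR-34 family, 11 of the clusters of miR-23, miR-27 and miR-24, 5 SRF-linked and muscle miRNAs, or the 2 blood, 3 liver and gut, 3 neural and 2 epithelial markers. The same held for 9 miRNAs listed with the Dlk1-Dio3 cluster, among them both arms of miR-342 and miR-345, which lie outside it.

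The share of reads trimmed at an end moved with the direction of change. At mean levels of 10 CPM or more, the trimmed share was higher late in 11 of 13 that fell, in 116 of 231 not called (50.2%) and in 3 of 20 that rose, with median differences of 1.97, 0.00 and -1.92 percentage points. miR-335-3p went from 16.3% ± 2.36 (SD, n = 4) trimmed in the mid libraries to 22.04% ± 3.58 (n = 4) in the late ones, and miR-214-3p from 21.3% ± 1.49 to 27.0% ± 1.85. In the opposite direction, miR-29a-3p went from 32.4% ± 2.00 to 26.6% ± 0.30 and miR-17-5p from 13.7% ± 2.60 to 9.35% ± 0.64. In each of these 4 miRNAs the ranges of the mid and late libraries did not overlap. The groups were formed by changes in the same reads, so these shares are a description with no test.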

How the data were processed

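The deposited table gives raw read counts per miRNA and read class, 1 column per library, per the file headers; the authors applied no scaling that the values show. CASAVA 1.8.0 is named per the submitters' processing notes. The genome build, aligner and miRBase release were not given in the sources used here. Of 6511 entries 1 identical duplicate was dropped. The 8 classes of a miRNA (equal to the reference, trimmed, 3′- and 5′-extended, each templated or not) were summed for 1167 mature miRNAs; entries that repeat reads (9.55% to 10.5% of the sum) and 0 unused sample columns were left out. Meanings of classes were read from their names.

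Counts were tested with edgeR 4.0.16 (quasi-likelihood F-test; limma 3.58.1, R 4.3.3) in 1 fit of all 16 libraries with time and the replicate number as a block, TMM scaling (factors 0.935 to 1.04) and filterByExpr at a minimum count of 10, which kept 449 miRNAs and left out 718 (at least 99.986% of reads kept). Benjamini-Hochberg adjustment at 0.05 ran over all tested miRNAs. Stage contrasts average 2 times. SE is the log2 change over the square root of F. The numbers pair the libraries: the design text speaks of independent experiments, each sequencing run holds 1 replicate number, and deviations of same-numbered libraries correlated at 0.134 to 0.602 in all 28 pairs of times. The run and the experiment cannot be told apart. On simulated data of 433 miRNAs for late minus mid, 75.3% of changes of 1.5-fold and 98.0% of 2-fold were recovered, with 1.74% false among the calls. There 195 of the 433 were given a change, and the counts followed the model that the test assumes. Changes under 1.5-fold, as many of the called ones were, were not simulated, so these rates need not hold for the data.

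miRNAs were named by rule: the 8 largest called rises and falls with a mean of at least 2 CPM, the 5 most abundant late-only and the 5 reversing miRNAs with the largest mid change in each direction, the 5 most abundant called and tested, the 2 most abundant of each list, and partners by arm, seed or cluster; others were named after their values were seen. The contrast, its members and the lists were chosen with earlier results of these data known. Alternatives were no block, the 8 libraries alone, DESeq2 1.42.0 (scaling and test), total counts, no filter, at least 10 CPM, limma-voom, reads equal to the reference, no shared mid library and leaving out each library. RefSeq sequences (GRCm38.p6) matched 38 of 41 called and 372 of 449 tested miRNAs by name; host genes come from GENCODE vM21 on that build.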

Additional observations from a re-analysis of the deposited data

Results flagged for a closer look

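In 7 of 150 groups of 4 libraries (mid or late, over the called and the named miRNAs) 1 library lay far from the other 3; chance gives about 1 in 20 such groups. In 5 of the 7 it was 10 h replicate 2. That library held 1825 CPM of let-7b-5p (others 1203 to 1276), 104 CPM of miR-181a-1-3p (132 to 135), 39329 CPM of miR-181a-5p (35238 to 35753), 36.2 CPM of miR-29b-3p (88.2 to 94.8) and 274 CPM of miR-342-3p (199.1 to 204.5). In 12 h replicate 2 miR-351-5p was at 3870 CPM (5375 to 5435). In 6 h replicate 2 miR-451a, a marker of red blood cells, was at 1.68 CPM (0.632 to 0.780). What sets these libraries apart was not tested.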

How the results depend on the processing

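Of the 41 late against mid calls, 13 were made under every alternative and every omission of a library, 19 under every omission and 18 without the replicate block, and 40 kept their sign throughout. The exception was miR-155-5p, at 0.61 when only reads equal to the reference were counted; the cause was not tested. Without the replicate block, late against mid gave 18 calls, mid against 0 h 60, late-only changes 4 and reversals 3. Without the filter on low counts, 6 h against 4 h gave 3 calls and 12 h against 10 h gave 1. Reversals numbered 3 at a mean of at least 10 CPM (fewer miRNAs tested), 5 with DESeq2, 5 with reads equal to the reference and 0 with no shared mid library, and late-only changes 14 with reads equal to the reference. Leaving out 1 library gave 27 to 45 calls late against mid, 40 to 106 mid against 0 h, 74 to 120 late against 0 h, 6 to 14 late-only changes, 2 to 9 reversals, 0 to 1 call for 6 h against 4 h and 0 for 12 h against 10 h. Counting error is part of the spread of the 5 reversals under 10 CPM, which rest on 4 to 83 reads in a mid or late library. Each stage rests on 2 experiments.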
